A study of Caenorhabditis elegans with 12 samples.

Results

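The comparison is that of worms without a germline and worms with one on day 1 of adulthood (D1) of the nematode Caenorhabditis elegans. It sets 3 RNA-seq libraries of glp-1 mutants, labelled with the allele e2141, against 3 libraries of the wild-type strain N2 (WT), 6 of the 12 libraries of the series. Genes were chosen by level alone: every gene that reached 1 FPKM in at least 3 of the 6 libraries is described, which gave 12720 of the 20257 genes listed and left out 7537. FPKM is the authors' value for a gene, its fragments corrected for transcript length and for the mapped fragments of the library.

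Both groups were whole worms at the first day of adulthood, grown from synchronized first-stage larvae at 25 °C on plates of the Escherichia coli strain OP50, so the control worms had the raised temperature too. The other 6 libraries hold the same genotypes at day 6 (D6) after a shift to a cooler temperature, and they enter only a comparison of the ages near the end. The study's title concerns intermediate filaments and lifespan, and the mutant serves as a long-lived strain without a germline. The D6 temperature is labelled 20, 21 or 22 °C by replicate, while the treatment notes give 20 °C for all. For D1 nothing in the labels ties the 3 libraries of a genotype to separate cultures. The D1 p-values therefore rest on a spread between libraries that may be technical.

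GLP-1 is a Notch receptor on germ cells. In the adult hermaphrodite a somatic cell at the distal tip of each gonad arm presents Notch ligands to it, and this contact keeps germline stem cells in mitosis. Cells that leave the contact enter meiosis and become sperm in the larva and oocytes in the adult, and oocytes are fertilized and held as embryos in the uterus for a time. The allele e2141 is temperature sensitive: mutants grown at the restrictive temperature make almost no germ cells, while the somatic gonad (distal tip cells, sheath, spermatheca and uterus) and the rest of the body remain. Loss of the germline in this way is known to lengthen life through the somatic factors DAF-16 (a FOXO transcription factor), TCER-1, DAF-12 and others. WT worms at D1 therefore differ from the mutants by germ cells at all stages and by embryos, and both were counted in the same whole-worm RNA.

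Depth was estimated from the steps between low values at 18.4 to 20 M fragments a library. The search ran from 12 to 24 M and rested on 28 to 55 genes at the step, and with the upper limit raised to 100 M it gave the same values. Libraries of a genotype were close to each other, with rank correlations over all genes of 0.989 to 0.991, while libraries of different genotype stood at 0.519 to 0.531. The test was limma on log2(FPKM + 1) with adjustment over all 12720 genes (Benjamini-Hochberg), and a gene was called at an adjusted p under 0.05. A log2 fold change is that of glp-1 over WT on this scale, where the added 1 shrinks the changes of weakly expressed genes. Near-identical copies (msp, his, act, gpd and cyp-31A genes) and overlapping genes are uncertain, since the way reads were assigned to them is not stated.

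The targeted gene itself was low in every mutant library. For glp-1 (chromosome III, 9092241 to 9099698, WBcel235) the values were 3.37, 3.21 and 3.39 FPKM in glp-1 worms, against 67.1, 64.4 and 68.7 FPKM in WT worms, a log2 fold change of -3.97 (SE 0.08, adjusted p = 7.94e-10). The groups did not overlap. The allele is a change in the protein, so this level is no check of the mutation itself.

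Most genes differed between worms without and with a germline. Of the 12720 genes 92% were called: 5349 genes, 42.1%, were higher in glp-1 worms and 6357 genes, 50%, were lower, and 1014 were not called. In 92.2% of the genes the 3 mutant libraries did not overlap the 3 WT libraries. These shares are the background for each count below. At least 2-fold apart were 8707 called genes, 3446 higher and 5261 lower. The falls were much deeper than the rises: 798 genes were lower by at least 4 on the log2 scale and 17 higher, and 36 genes were lower by at least 8 and 1 higher. Genes at least 2-fold lower held 9.81% to 9.85% of all FPKM in glp-1 libraries, against 45.6% to 47.2% in WT libraries, and genes at least 2-fold higher held 52.5% to 53.3% in glp-1 libraries, against 14.8% to 15.3% in WT libraries.

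FPKM is a share of the RNA sequenced, so a gene whose transcripts per worm stay as they are rises when other RNA is lost. In whole worms, fewer cells of a type and less RNA per cell cannot be told apart. A second scaling, to the median ratio of the body wall muscle and neuron lists, shows how far calls rest on this: the median over all genes was -1.38 with it and -0.29 without it, a shift of -1.09, and higher genes then made up 18.2% of the calls in place of 45.7% (1769 higher and 7972 lower). That scaling takes muscle and neurons as its fixed point and is no measure of RNA per worm. Of 1903 genes with rises below 1 on the log2 scale 16 were still higher in it, of 2863 with rises of 1 to 2 it was 1198, or 41.8%, and of 583 with larger rises 555. For most groups with higher genes the count in the muscle and neuron scaling (written as scaled) is given beside the count from FPKM as deposited. The filter adds a further limit: 1692 genes reached 1 FPKM in all 3 WT libraries and in no mutant library, and 560 did so the other way round. Such genes had to differ, so list counts describe the lists and are not support for a direction.

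**Figure D1:**
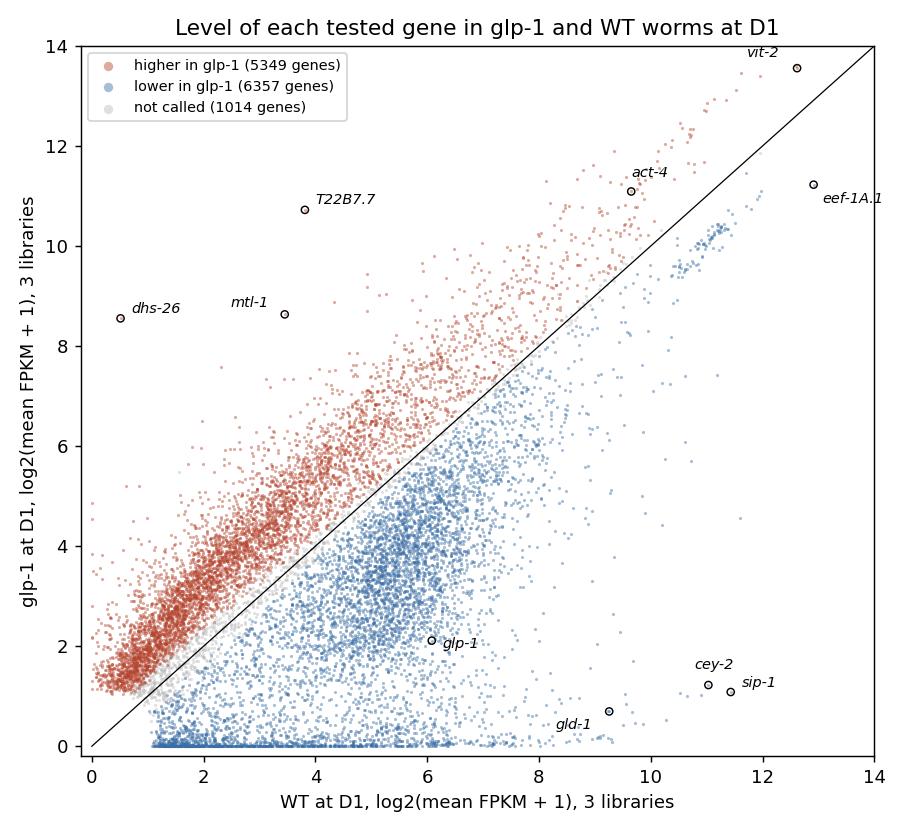
Each point is 1 of the 12720 tested genes, with its level in glp-1 worms on the y axis and in WT worms on the x axis (both log2(mean FPKM + 1) over 3 libraries) and the line of equal levels. The genes lower in glp-1 reach far below the line, down to 0 in the mutant at high WT levels, while most of the higher genes lie in a band about 1 to 2 units above it.

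Genes of the germline stem cell niche were all lower in the mutant. The list held 21 genes of Notch signalling and of the RNA regulators that set the balance of mitosis and meiosis, all 21 were tested, and 21 were lower (median -3.61, against -0.29 over all genes; 9 passed the filter through WT libraries alone). The direct Notch target sygl-1, active only in stem cells next to the niche, had 0.123, 0 and 0 FPKM in glp-1 worms, against 159, 172 and 179.7 FPKM in WT worms. The second target, lst-1, had 4.10, 3.53 and 6.92 FPKM in glp-1 worms, against 122.2, 114 and 123 FPKM in WT worms. The RNA-binding protein gene gld-1 (chromosome I, 7695681 to 7698222), which drives entry into meiosis and represses maternal mRNAs, had 0.670, 0.490 and 0.698 FPKM in glp-1 worms, against 606, 609 and 616 FPKM in WT worms, and no mutant library came near a WT library for any of the 3 genes. The PUF repressors that hold cells in mitosis were low as well, with fbf-2 at -3.37 (SE 0.16) and puf-8 at -6.07 (SE 0.10) on the log2 scale, and fbf-1 was listed at 0 in all 3 glp-1 libraries.

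The partners of the receptor were lower as well. The nuclear effectors lag-1 and sel-8, which serve both Notch receptors of the worm, had log2 fold changes of -2.44 (SE 0.10) and -1.74 (SE 0.08). The somatic Notch receptor lin-12, which is not in the list and was picked after its values were seen, stood at 2.19, 2.23 and 2.01 FPKM in glp-1 worms, against 3.37, 3.73 and 3.15 FPKM in WT worms (-0.49, SE 0.12). The niche ligand lag-2, which the distal tip cell makes, was low in both groups, with 0.0783, 0.173 and 0.468 FPKM in glp-1 worms, against 1.65, 1.35 and 1.49 FPKM in WT worms. The ligand apx-1, which is also supplied to embryos by the mother, had 5.71, 5.61 and 4.63 FPKM in glp-1 worms, against 141, 128 and 128.8 FPKM in WT worms. For both ligands the 3 mutant values lay below the 3 WT values.

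Meiotic chromosome genes stood at very low levels in the mutant. Of 41 listed genes of the chromosome axis, pairing, synapsis and crossing over, 40 were tested and 40 were lower (median -4.72), and 35 of them passed the filter through WT libraries alone. The axis gene him-3 had 0, 0.108 and 0.0503 FPKM in glp-1 worms, against 79.4, 77.3 and 81.4 FPKM in WT worms. The meiotic cohesin gene rec-8 had 0, 0.0765 and 0.0535 FPKM in glp-1 worms, against 63.9, 66 and 72.6 FPKM in WT worms. The synaptonemal complex gene syp-1 had 0.108, 0.0710 and 0.139 FPKM in glp-1 worms, against 31.2, 27.5 and 28.9 FPKM in WT worms, and the break-making enzyme spo-11 had 0.104, 0 and 0 FPKM in glp-1 worms, against 27.1, 24.5 and 29.1 FPKM in WT worms. In each of these 4 genes the mutant libraries stood below 1 FPKM and the WT libraries above 20 FPKM. The smallest falls of the list were those of zyg-12, whose product ties the centrosome to the nucleus, at -2.60 (SE 0.10), him-19 at -2.65 (SE 0.11) and him-17, a chromatin factor, at -2.94 (SE 0.08).

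P granules are RNA and protein bodies around germ nuclei. All 20 of their genes that were listed were lower (median -5.54; 11 passed through WT alone). The scaffold gene pgl-1 had 0.172, 0.0337 and 0.0429 FPKM in glp-1 worms, against 244, 254 and 256 FPKM in WT worms, and the Vasa-type helicase gene glh-1 had 4.58, 5.54 and 5.88 FPKM in glp-1 worms, against 254, 283 and 268 FPKM in WT worms. Granule proteins with a general part in RNA turnover were lower too. The DDX6-type helicase gene cgh-1 had 21.4, 19.4 and 21 FPKM in glp-1 worms, against 1138, 1174 and 1218 FPKM in WT worms. Its Lsm-domain partner car-1 had 49.4, 53.3 and 54 FPKM in glp-1 worms, against 1204, 1221 and 1232 FPKM in WT worms. For both, the groups were well apart, and the mutant levels were far above that of pgl-1.

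Small RNA pathways were lower except at 4 genes. Of 50 listed genes 48 were tested, 44 were lower, 2 were higher and 2 were not called (median -2.24, 11 passing through WT alone). The nuclear Argonaute hrde-1, which carries germline inheritance of silencing, had 0.358, 0.316 and 0.381 FPKM in glp-1 worms, against 220.2, 229.7 and 232 FPKM in WT worms. The cytoplasmic Argonautes wago-1 and wago-4 had log2 fold changes of -7.42 (SE 0.08) and -5.69 (SE 0.11), and the piRNA factor tofu-6 -6.62 (SE 0.10). The piRNA Argonaute prg-1 kept a measurable level, with 12.9, 16 and 15.9 FPKM in glp-1 worms, against 128, 124 and 131 FPKM in WT worms, and csr-1, the Argonaute that licenses germline transcripts, had 36.7, 37.7 and 35.7 FPKM in glp-1 worms, against 170.2, 176 and 194 FPKM in WT worms.

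The 2 higher genes act in the soma. The secondary Argonaute sago-1 had 71.6, 71.1 and 66.7 FPKM in glp-1 worms, against 20.3, 20.1 and 20.2 FPKM in WT worms, a log2 fold change of 1.74 (SE 0.06) and 0.51 in the muscle and neuron scaling, still higher. The gut transporter sid-2, which takes up double-stranded RNA from the lumen, had 31.4, 32.9 and 29.9 FPKM in glp-1 worms, against 9.17, 7.52 and 11.4 FPKM in WT worms (1.66, SE 0.13, and 0.47 when scaled, still higher). The microRNA Argonaute alg-1 was not called (-0.17, SE 0.08, adjusted p = 0.072), and neither was sago-2 (-0.04, SE 0.09, adjusted p = 0.684). The alg-1 sister alg-2 was lower, with 12.7, 13.4 and 12.7 FPKM in glp-1 worms, against 50.4, 52.8 and 49.1 FPKM in WT worms. The pair of sperm Argonautes alg-3 and alg-4 was below 3 FPKM in all WT libraries, and alg-4 was listed at 0 in all 3 mutant libraries.

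Genes of the growing oocyte were among the most reduced. Of 26 tested RNA-binding proteins of oocytes and early embryos, 25 were lower and 1 was not called, with a median of -7.07 (17 passed through WT alone). They repress maternal mRNAs until they are needed. The zinc finger gene pos-1 had 0.589, 0.480 and 0.0647 FPKM in glp-1 worms, against 829.6, 834 and 854 FPKM in WT worms, and spn-4, an RNA-binding regulator of the early embryo, had 0.226, 0 and 0.146 FPKM in glp-1 worms, against 596, 573 and 633 FPKM in WT worms. The maturation regulators oma-1 and oma-2 had log2 fold changes of -7.65 (SE 0.08) and -7.78 (SE 0.13), and puf-5 and mex-5 had -8.93 (SE 0.09) and -8.90 (SE 0.09). The member not called was puf-9, a PUF gene of the soma, with 33.8, 35.5 and 33.3 FPKM in glp-1 worms, against 29.1, 32.5 and 31 FPKM in WT worms (0.15, SE 0.07, adjusted p = 0.0819), and it was lower at -1.08 in the muscle and neuron scaling. Next in order from the top were etr-1, a muscle RNA-binding protein, at -0.84 (SE 0.09), and the deadenylase ccf-1 at -1.62 (SE 0.07), which works in all cells.

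The egg coat list had the lowest median of all lists with FPKM as deposited, close to that of the oocyte RNA-binding list (-7.07). When scaled to muscle and neurons the order was reversed, with -7.75 for the egg coat list and -7.89 for the oocyte RNA-binding list. Of 21 tested genes of the oocyte surface, yolk uptake and eggshell, 19 were lower and 2 higher (median -7.10, 11 passing through WT alone). The chondroitin proteoglycan gene cpg-2 had 1.53, 0.699 and 0.890 FPKM in glp-1 worms, against 2006, 1836 and 1871 FPKM in WT worms, and cbd-1, a chitin-binding protein of the outer eggshell, had 0.345, 0.364 and 0.321 FPKM in glp-1 worms, against 723, 721 and 734 FPKM in WT worms. The yolk receptor rme-2 (chromosome IV, 5470026 to 5473174) had 0.219, 0.0336 and 0.0870 FPKM in glp-1 worms, against 524, 535 and 568 FPKM in WT worms. No mutant library was above 1.53 FPKM for any of the 3 genes. The yolk proteins that the receptor takes up are made in the intestine, and their genes went the other way, with vit-6 at 12602, 12602 and 11951 FPKM in glp-1 worms, against 6625, 6371 and 5678 FPKM in WT worms. With vit-2 (12039.5 FPKM in glp-1 worms and 6286 FPKM in WT worms on average) it made the top pair of transcripts by mean FPKM in the mutant. Both were below WT in the muscle and neuron scaling (-0.27 and -0.33, both lower). These values cover vit-6 and vit-2 alone, and the other yolk protein genes are not described here. The eggshell genes that were higher, perm-2 and perm-4, turned to lower in that scaling (-0.56 and -0.38).

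Sperm genes were mostly lower in the mutant. Of 31 msp genes 28 were tested and 28 were lower (median -4.62), 24 of them passing through WT alone. They encode major sperm protein, which moves sperm and signals to oocytes, and the copies are near identical, so values of single genes are uncertain. For msp-40 the values were 0.0690, 0 and 0.201 FPKM in glp-1 worms, against 61.9, 54.1 and 44.9 FPKM in WT worms. Of 10 tested spe and fer genes 9 were lower and spe-4 was not called (-0.31, SE 0.16, adjusted p = 0.0858), and spe-44, a regulator of sperm genes, was listed at 0 in all 3 mutant libraries, against 14, 13.1 and 15.1 FPKM in WT worms. Of 14 ssp, ssq and sss genes, sperm-specific families, 13 were lower and ssp-37 was higher, at 42.6, 32.2 and 39.6 FPKM in glp-1 worms, against 19.5, 18.8 and 22.6 FPKM in WT worms, a call that ended in the muscle and neuron scaling (-0.35). Through WT alone passed 10 of these 14 genes and 5 of the 10 spe and fer genes.

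The sex determination and dosage compensation genes were lower at nearly every step. Of 26 genes 24 were lower, 1 was higher and 1 was not called (median -2.16). Germline regulators of the sperm to oocyte switch led, with fem-3 at 0.308, 0.145 and 0.130 FPKM in glp-1 worms, against 52.9, 49.1 and 62.1 FPKM in WT worms, and the F-box gene fog-2 at -4.40 (SE 0.13). The terminal regulator tra-1, a GLI-type factor in soma and germline, was the higher one by a small margin, with 19.99, 19.2 and 18.5 FPKM in glp-1 worms, against 16.2, 16.3 and 14.2 FPKM in WT worms (0.29, SE 0.09), and was lower in the muscle and neuron scaling (-0.90). The calpain gene tra-3 was not called (0.013, SE 0.09, adjusted p = 0.895). The male-promoting switch xol-1, active in early embryos, had 0, 0.103 and 0 FPKM in glp-1 worms, against 1.44, 1.92 and 2.10 FPKM in WT worms.

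A few transcription factors known from embryos, picked as textbook examples and not from a list of their own, are given here. The endoderm GATA factor end-1 was listed at 0 FPKM in all 3 glp-1 libraries, against 1.62, 1.28 and 1.54 FPKM in WT worms. The orphan nuclear receptor nhr-2, made by the mother and the early embryo, was listed at 0 FPKM in all 3 glp-1 libraries, against 14.1, 16.7 and 18.1 FPKM in WT worms, and the neurogenic bHLH genes hlh-3 and hlh-14 were listed at 0 in all 3 mutant libraries and above 4 FPKM in all WT libraries. The caudal homolog pal-1 had 4.60, 3.38 and 3.60 FPKM in glp-1 worms, against 111.5, 103.9 and 109 FPKM in WT worms. The epidermal GATA factor elt-1 had 2.24, 2.58 and 0.976 FPKM in glp-1 worms, against 19.8, 22.9 and 20.7 FPKM in WT worms. These genes passed 1 FPKM in WT worms, which carry embryos, and what embryos and adult germ cells each added was not tested.

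Programmed cell death in the hermaphrodite gonad removes many germ cells. Of 31 tested genes of germ cell death, engulfment and sperm to oocyte signalling 26 were lower and 4 higher (median -1.76, 6 passing through WT alone). The caspase gene ced-3 had 0.428, 0.531 and 0.234 FPKM in glp-1 worms, against 138, 117 and 123 FPKM in WT worms, and the p53 homolog cep-1 had 0.584, 0.216 and 0.271 FPKM in glp-1 worms, against 28.5, 25.4 and 32.7 FPKM in WT worms. The engulfment receptor ced-1, which acts in the sheath cells, was not called (0.10, SE 0.06, adjusted p = 0.163). The 4 higher genes were parts of the sheath response to sperm, the adenylate cyclase acy-4 (1.19, SE 0.13), the G protein gsa-1 (1.30, SE 0.14), the kinase kin-1 (1.51, SE 0.09) and the POU homeobox gene ceh-18 (1.41, SE 0.11), and none of them was called higher in the muscle and neuron scaling.

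**Figure D2:**
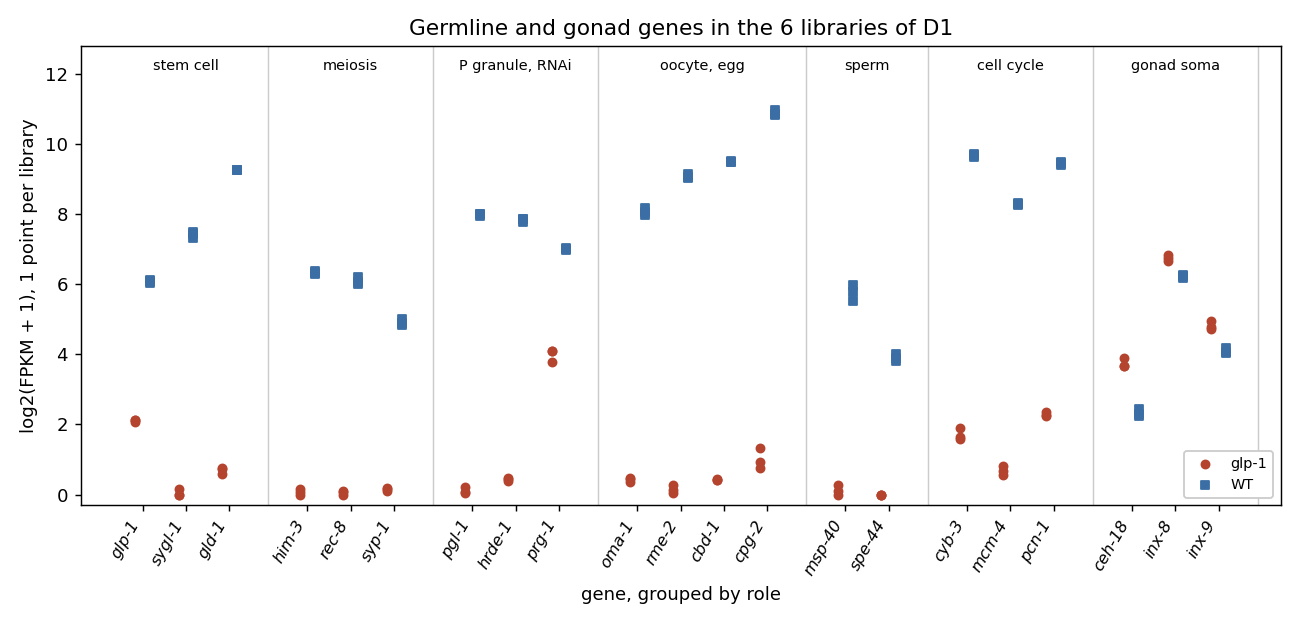
Points are libraries (3 of glp-1, left and red; 3 of WT, right and blue) and the y axis is log2(FPKM + 1). Most germ cell genes stand at or near 0 in the mutant, while prg-1, pcn-1, glp-1 and cyb-3 keep a measurable level. The 3 genes of the gonadal sheath at the right are higher in glp-1 with FPKM as deposited, of which inx-8 and inx-9 turn lower in the muscle and neuron scaling.

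Adult somatic cells of the worm do not divide, so cells in division at this age are those of the germline and of embryos. All 39 tested DNA replication genes were lower (median -5.06), all 41 cyclins, kinases and cell cycle regulators (median -3.20), all 19 condensin and cohesin genes (median -3.60) and all 48 DNA repair genes (median -3.37). Of these, 11, 9, 3 and 8 passed the filter through WT alone, in that order. Of 56 kinetochore, spindle and cytokinesis genes 55 were lower (median -5.13, 21 passing through WT alone). The replicative helicase gene mcm-4 had 0.467, 0.746 and 0.588 FPKM in glp-1 worms, against 313, 317 and 308 FPKM in WT worms, and the sliding clamp pcn-1 had 3.85, 4.07 and 3.74 FPKM in glp-1 worms, against 704, 712 and 675 FPKM in WT worms. The mitotic cyclin cyb-3 had 1.99, 2.12 and 2.70 FPKM in glp-1 worms, against 791, 829 and 845 FPKM in WT worms, its partner kinase cdk-1 had 0.870, 0 and 0.681 FPKM in glp-1 worms, against 235.0, 229 and 242 FPKM in WT worms, and the meiotic spindle gene mei-2 was listed at 0 in all 3 mutant libraries. The groups did not overlap for any of the 4 genes with values above 0 in both.

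The smallest falls of the cell cycle list were those of the transcription elongation kinase cdk-9 (-0.71, SE 0.07), its relative cdk-12 (-1.29, SE 0.07), cdk-4 (-1.38, SE 0.11) and the inhibitor cki-1 (-1.46, SE 0.11). The formin cyk-1 was not called (-0.21, SE 0.09, adjusted p = 0.0516), and the repair ligase lig-4, which joins broken ends in resting cells, had -0.86 (SE 0.10). Among cohesins the mitotic kleisin scc-1 had -5.65 (SE 0.10), and coh-1, a kleisin of cells that no longer divide, -1.24 (SE 0.16). Ribonucleotide reductase rnr-1, which makes deoxynucleotides, had 0.902, 1.08 and 0.954 FPKM in glp-1 worms, against 213, 209 and 218 FPKM in WT worms. Of 26 nucleotide synthesis genes 17 were lower and 9 higher (median -0.73; 4 higher and 21 lower when scaled, median -1.97).

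Chromatin genes were lower with few exceptions. Of 57 histone modifiers and chromatin proteins 54 were lower, 1 was higher and 2 were not called (median -2.87). The methyltransferase mes-4, which keeps germline genes marked, had 0.371, 0.310 and 0.248 FPKM in glp-1 worms, against 44.6, 42 and 45.6 FPKM in WT worms, and met-2, a histone H3 lysine 9 methyltransferase, had -3.36 (SE 0.13). The deacetylase hda-4 (0.017, SE 0.10, adjusted p = 0.87) and the demethylase jmjd-3.1 (-0.25, SE 0.11, adjusted p = 0.0619) were not called. The higher gene was the linker histone hil-1, at 31.1, 29.2 and 29.7 FPKM in glp-1 worms, against 8.09, 4.2 and 6.01 FPKM in WT worms (2.16, SE 0.18, and 1.0 when scaled to muscle and neurons), while the linker histones hil-2, hil-4 and hil-5 were lower, with log2 fold changes of -5.61 (SE 0.17), -8.88 (SE 0.10) and -8.61 (SE 0.10). Core histone genes, many of them identical copies without poly(A) tails, had 27 lower, 11 higher and 10 not called of 48 (median -0.89; 2 higher and 41 lower when scaled, median -1.67). Through WT alone passed 19 of these 48 genes. The H3-type gene his-74 led the falls, with 0.516, 1.26 and 0.706 FPKM in glp-1 worms, against 324, 337 and 343 FPKM in WT worms.

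Genes for making RNA and protein were lower in glp-1, those of the nucleus by the largest medians. Splicing factors had 55 of 55 genes lower (median -2.65), nuclear pore and transport genes 46 of 46 (median -3.02) and ribosome assembly genes 43 of 44 (median -2.84). The proteasome had 32 of 32 lower (median -1.85), tRNA synthetases 31 of 31 (median -1.51), translation factors 24 of 28 (median -1.47) and mitochondrial ribosomal proteins 66 of 66 (median -1.56). Cytosolic ribosomal proteins had 78 of 80 lower and, at -0.92, the median nearest 0 of these lists. None of the genes in them passed the filter through WT alone.

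Single members ran the same way. The splicing gene rsp-5 had 11.6, 11.6 and 12.9 FPKM in glp-1 worms, against 215.1, 233 and 236 FPKM in WT worms, and fibrillarin, fib-1, the methylase of ribosomal RNA, had 31.3, 33.7 and 32.3 FPKM in glp-1 worms, against 593, 661 and 593 FPKM in WT worms. Elongation factor 2, eef-2, had 800.1, 771 and 822 FPKM in glp-1 worms, against 1857, 1883 and 1811 FPKM in WT worms, and the ribosomal gene rpl-22 had 306, 296 and 322 FPKM in glp-1 worms, against 792, 793 and 696 FPKM in WT worms. The WT mean was 19 times the mutant mean for fib-1, 19 times for rsp-5 and 2.32 times for eef-2. The repressor of nucleolar size ncl-1 was not called (0.15, SE 0.07, adjusted p = 0.0514), and the mRNA export receptor nxf-1 was the least changed of the transport genes (-0.76, SE 0.09).

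Folding factors of the cytosol were low too. Of 29 chaperonin, HSP70 and HSP90 genes 28 were lower (median -2.40), with the HSP90 gene daf-21 at 65.8, 68.6 and 66.4 FPKM in glp-1 worms, against 1551, 1580.0 and 1567 FPKM in WT worms. The stress-induced hsp-70 was higher, at 2.66, 3.35 and 2.61 FPKM in glp-1 worms, against 0.337, 0.317 and 0.0895 FPKM in WT worms (1.63, SE 0.14, and 1.06 when scaled). Endoplasmic reticulum folding genes were mixed, with 14 lower, 4 higher and 4 not called of 22 (median -0.59), and the muscle and neuron scaling gave 0 higher and 22 lower (median -1.83). The inducible BiP gene hsp-4 had 39.1, 34.5 and 37.3 FPKM in glp-1 worms, against 269.6, 267 and 281 FPKM in WT worms. Its constitutive copy hsp-3 had 638, 599 and 643 FPKM in glp-1 worms, against 669, 652 and 617 FPKM in WT worms, not called (-0.043, SE 0.06, adjusted p = 0.502).

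Many proteins of the worm have a copy used in germ cells and a copy used in the soma, and a list of 25 pairs of copies, put together with results known, was looked up. With FPKM as deposited, in 13 pairs the copies went in opposite directions, in 8 both were lower, in 1 both were higher, and in 3 a copy was not called. The 13 pairs are not all separate proteins, since ife-2 was paired with both ife-3 and ife-5. No such count was made in the muscle and neuron scaling, where several of the higher copies were not called or turned lower, as given below. For the translation factor eIF-5A, iff-1 had 1.48, 0.624 and 1.14 FPKM in glp-1 worms, against 1480.5, 1496 and 1452 FPKM in WT worms, and iff-2 had 508, 511 and 571 FPKM in glp-1 worms, against 262, 218 and 198 FPKM in WT worms. The more abundant copy was thus iff-2 in glp-1 worms and iff-1 in WT worms. When scaled, iff-1 stayed lower (-10.41) and iff-2 was not called (-0.027). For subunit b of the mitochondrial ATP synthase, asb-1 had 18.9, 16.8 and 20.5 FPKM in glp-1 worms, against 308, 309.9 and 312 FPKM in WT worms, and asb-2 had 522, 518 and 554 FPKM in glp-1 worms, against 241, 222 and 195 FPKM in WT worms. For the ribosomal protein L11, rpl-11.1 had 23.8, 25.5 and 18.9 FPKM in glp-1 worms, against 3075, 3253 and 2994 FPKM in WT worms, and rpl-11.2 had 1227, 1202 and 1395 FPKM in glp-1 worms, against 781, 768 and 650.5 FPKM in WT worms. In each protein 1 copy fell and the other rose with FPKM as deposited, and no groups overlapped. When scaled, asb-2 was not called (0.016) and rpl-11.2 turned lower (-0.46).

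Further pairs had the same form. For glyceraldehyde-3-phosphate dehydrogenase, gpd-1 averaged 8.90 ± 0.274 FPKM in glp-1 worms and 491 ± 7.11 FPKM in WT worms (SD, n = 3 each). Its near copy gpd-4 averaged 1.77 ± 0.140 FPKM in glp-1 worms and 291 ± 9.02 FPKM in WT worms (SD, n = 3 each). The other near-identical copies, gpd-2 and gpd-3, were higher, with log2 fold changes of 1.97 (SE 0.08) and 1.93 (SE 0.10), and stayed higher when scaled. Glutamine synthetase gln-6 had 0.178, 0 and 0 FPKM in glp-1 worms, against 657, 614 and 622 FPKM in WT worms. The copy gln-3 had 821, 821 and 783 FPKM in glp-1 worms, against 126, 134 and 96.7 FPKM in WT worms, and it stayed higher when scaled (1.51). The copy gln-5 went with gln-6 (-7.32, SE 0.09). The copies of elongation factor 1 alpha, eef-1A.1 and eef-1A.2, had -1.69 (SE 0.07) and 1.11 (SE 0.07). The top transcript of WT worms was eef-1A.1, which averaged 2395 ± 129.7 FPKM in glp-1 worms and 7715 ± 269 FPKM in WT worms (SD, n = 3 each). The complex III core gene ucr-2.3 had -6.32 (SE 0.12) and its copy ucr-2.1 had 1.14 (SE 0.07); neither eef-1A.2 nor ucr-2.1 was called when scaled. The caveolin pair cav-1 and cav-2 had -8.39 (SE 0.13) and 1.85 (SE 0.22), and cytochrome c cyc-2.2 was listed at 0 in all 3 mutant libraries while cyc-2.1 was not called (0.14, SE 0.09, adjusted p = 0.16).

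The 14-3-3 genes par-5 and ftt-2 had -1.54 (SE 0.06) and 0.64 (SE 0.06), and ftt-2 was lower when scaled (-0.62). Other copies were lower together. Both beta-tubulins tbb-1 and tbb-2 were lower (-2.01, SE 0.05, and -1.08, SE 0.06), as were both p97 genes, cdc-48.1 (-2.35, SE 0.06) and cdc-48.2 (-1.89, SE 0.05). The Y-box genes cey-2 and cey-3 had -9.82 (SE 0.10) and -9.43 (SE 0.10), cey-4 had -0.37 (SE 0.06), and cey-1 was not called (0.04, SE 0.07, adjusted p = 0.608). Of the eIF4E genes, ife-1, ife-3 and ife-5 had -3.20 (SE 0.05), -4.19 (SE 0.11) and -3.33 (SE 0.11), ife-4 was not called (-0.033, SE 0.13, adjusted p = 0.816), and ife-2 had 0.50 (SE 0.06), lower when scaled (-0.74). Actin act-2 had 270.4, 292 and 304 FPKM in glp-1 worms, against 1317, 1361 and 1261 FPKM in WT worms, while act-4 of muscle and act-5 of the gut border had 1.44 (SE 0.11) and 1.29 (SE 0.07), neither called when scaled.

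**Figure D3:**
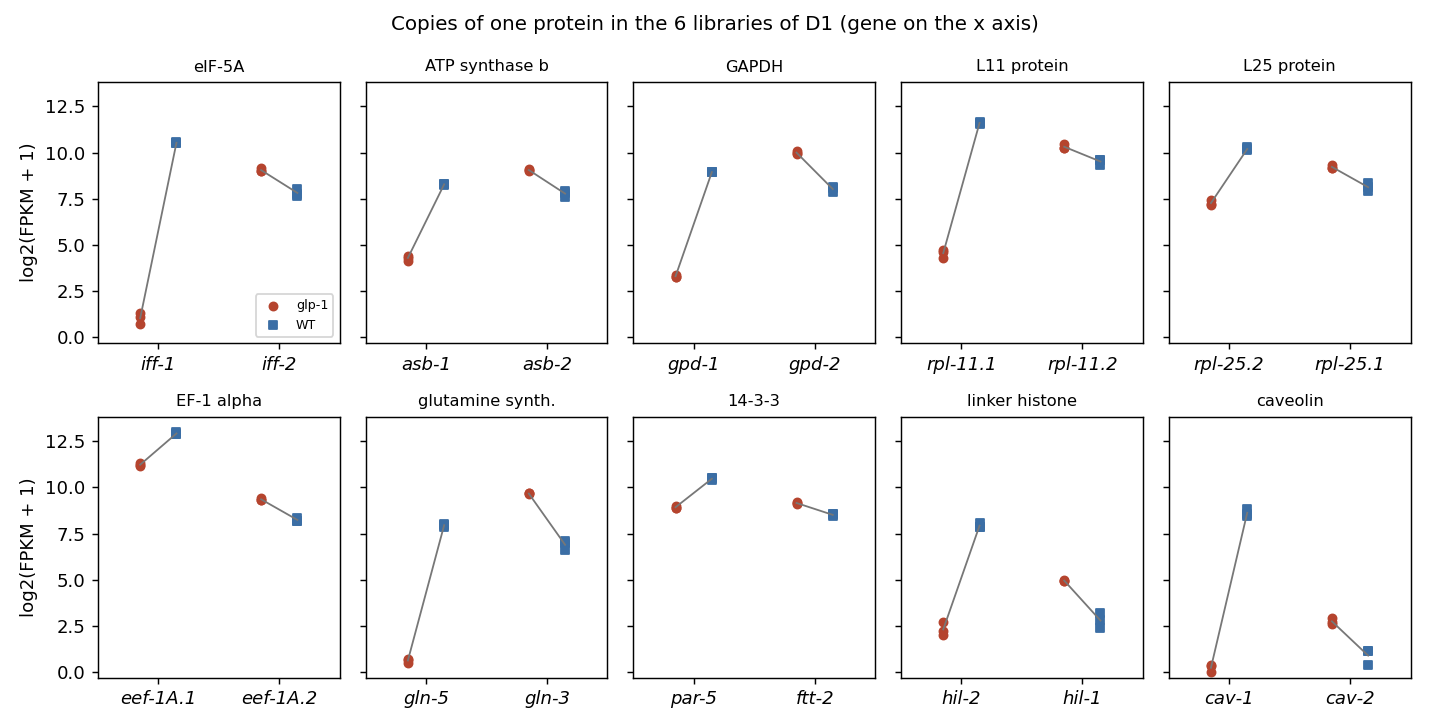
Each panel shows 2 gene copies of a protein, with 3 glp-1 libraries (red, left) and 3 WT libraries (blue, right) for each gene, log2(FPKM + 1) on the y axis, and a line between the group means. The 10 panels were chosen for their opposite directions: the gene on the left is lower in glp-1 and the gene on the right is higher with FPKM as deposited. The linker histone panel is not among the 25 pairs. There hil-2 was paired with hil-3, and both were lower (-5.61, SE 0.17, and -4.11, SE 0.09). In the muscle and neuron scaling gln-3, hil-1, cav-2 and gpd-2 stay higher, rpl-11.2 and ftt-2 turn lower, and the other 4 right-hand genes are not called.

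Genes of energy supply had medians near 0. Of 40 respiratory chain and ATP synthase genes 15 were higher, 7 lower and 18 not called, with a median of 0.081, above that of all genes, and the muscle and neuron scaling gave 0 higher and 36 lower (median -1.18). The uncalled genes included the cytochrome c oxidase subunits cco-1 (0.15, SE 0.07, adjusted p = 0.0544) and cco-2 (0.16, SE 0.08, adjusted p = 0.0729). Glycolytic genes had 13 higher, 9 lower and 2 not called of 24 (median 0.26; 4 higher and 20 lower when scaled, median -0.99), with muscle aldolase aldo-1 at 1.77 (SE 0.12).

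Lists of somatic tissues were higher in share. Body wall muscle had 33 of 36 genes higher and 1 lower (median 1.40). Intestine had 41 of 50 higher, 4 being lower (median 1.37). Of 37 neuronal genes 27 were higher and 5 lower (median 0.85), and of 19 pharyngeal genes 12 and 4 (median 0.78). Scaled to muscle and neurons, which fixes those 2 lists by construction, intestine had 20 higher and 11 lower (median 0.26), and of the pharyngeal genes 8 were lower and 0 higher (median -0.35). The myosin heavy chain gene unc-54 had 536, 613 and 749.6 FPKM in glp-1 worms, against 232, 294 and 206 FPKM in WT worms, and the gut GATA factor elt-2 had 24.7, 27.6 and 24 FPKM in glp-1 worms, against 11.9, 11.3 and 11.3 FPKM in WT worms. Neither was called when scaled. Other muscle genes ran close to unc-54, with unc-27, unc-15 and mup-2 of the thin and thick filaments at 1.69 (SE 0.11), 1.52 (SE 0.14) and 1.57 (SE 0.14). The integrin gene pat-3, which all tissues use, was the lower one (-0.62, SE 0.06), and hlh-1, the MyoD homolog, was not called (-0.36, SE 0.17, adjusted p = 0.0742).

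Some members went against their list. Among neuronal genes tdc-1, tyrosine decarboxylase, which is also made in the gonadal sheath, had 3.75, 3.24 and 3.13 FPKM in glp-1 worms, against 128, 121.02 and 128.7 FPKM in WT worms. The kinesin adaptor unc-76 had -2.12 (SE 0.13) and the zinc finger gene egl-46 had -2.0 (SE 0.17). Among intestinal genes end-1 and the aquaporin aqp-2 were lower, aqp-2 at -1.49 (SE 0.11). In the coelomocyte list, scavenger cells of the body cavity, 10 of 16 were lower, led by hmg-20 (-3.82, SE 0.12) and the Wnt sorting gene mig-14 (-3.05, SE 0.12), while cup-4, a channel gene of these cells, was higher (1.43, SE 0.10, and 0.30 when scaled, not called). Glia had 10 of 18 genes tested, 5 higher and 4 lower (1 higher and 5 lower when scaled, median -0.69), and the excretory system 11 higher and 5 lower of 18 (median 0.71; 1 higher and 8 lower when scaled, median -0.29).

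The somatic gonad is the tissue next to the missing cells. Of 41 tested genes of sheath, spermatheca, uterus and vulva 25 were higher, 14 lower and 2 not called (median 0.81), and the muscle and neuron scaling gave 4 higher and 18 lower (median -0.24). Through WT alone passed 9 of the 41 genes. The gap junctions between sheath and germ cells split by side. The sheath innexin inx-8 had 106, 113 and 99.5 FPKM in glp-1 worms, against 74.5, 71.9 and 75.7 FPKM in WT worms. Its near copy inx-9 had 29.9, 26.4 and 25 FPKM in glp-1 worms, against 17.1, 15.3 and 15.8 FPKM in WT worms. The germ cell innexin inx-14 had 0, 0 and 0.0776 FPKM in glp-1 worms, against 74.5, 71.6 and 82.7 FPKM in WT worms, and its partner inx-22 had 0, 0 and 0.111 FPKM in glp-1 worms, against 79.6, 78.3 and 80.2 FPKM in WT worms. The sheath genes were thus higher with FPKM as deposited and lower when scaled (-0.74 and -0.49), while the germ cell genes stood below 1 FPKM in every mutant library. The growth factor lin-3, an EGF homolog, had 0.613, 0.874 and 0.579 FPKM in glp-1 worms, against 26.3, 23.8 and 28.7 FPKM in WT worms, and the protease gon-1, which shapes the gonad, had 13.5, 14.3 and 14 FPKM in glp-1 worms, against 3.73, 4.04 and 3.26 FPKM in WT worms.

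Cuticle collagens had a higher median than the tissue lists. Of 101 tested col genes (157 listed) 92 were higher and 6 lower (median 1.61), and the muscle and neuron scaling left 61 higher and 9 lower (median 0.54). Collagens of adult cuticle were among the most abundant transcripts of the mutant, with col-119 at 8627, 8852 and 9309 FPKM in glp-1 worms, against 2955, 3293 and 2589.5 FPKM in WT worms. Next to it, col-20 had 7399, 7429 and 7573 FPKM in glp-1 worms, against 2243, 2170.4 and 1793 FPKM in WT worms. Both stayed higher when scaled (0.34 and 0.59). The largest rise was that of col-139, with 518, 510.0 and 548 FPKM in glp-1 worms, against 49.1, 39.6 and 23.7 FPKM in WT worms. Collagens of the opposite sign were low in level, col-165 (-2.83, SE 0.13) and col-74 (-2.29, SE 0.20), and col-121 was listed at 0 in the mutant.

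Body-shape collagens that are not named col included deep falls. The collagen gene dpy-17 had 1.13, 1.37 and 1.74 FPKM in glp-1 worms, against 92.1, 105 and 90.2 FPKM in WT worms. The furrow collagen gene dpy-10 had 0.200, 0.141 and 0.0922 FPKM in glp-1 worms, against 13, 16.7 and 13.6 FPKM in WT worms, and sqt-3 had 21.1, 19 and 29.3 FPKM in glp-1 worms, against 99.2, 111 and 103 FPKM in WT worms. No mutant library came near WT for these 3 genes. The moulting receptor nhr-23 had -3.13 (SE 0.11) and the seam GATA factor egl-18 -4.09 (SE 0.11), while lin-29, which marks the adult epidermis, had 1.85 (SE 0.11). The epidermis list as a whole had 26 higher, 17 lower and 4 not called of 47 (median 0.56; 8 higher and 23 lower when scaled, median -0.35). Late embryos make their first cuticle, and their part in the WT level of these genes was not tested. Basement membrane genes had 22 of 35 higher and 6 lower (median 0.79; 8 higher and 18 lower when scaled, median -0.39), with nidogen nid-1 at 2.08 (SE 0.09) and the collagen IV chains emb-9 and let-2 at 1.42 (SE 0.13) and 1.55 (SE 0.14).

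**Figure D4:**
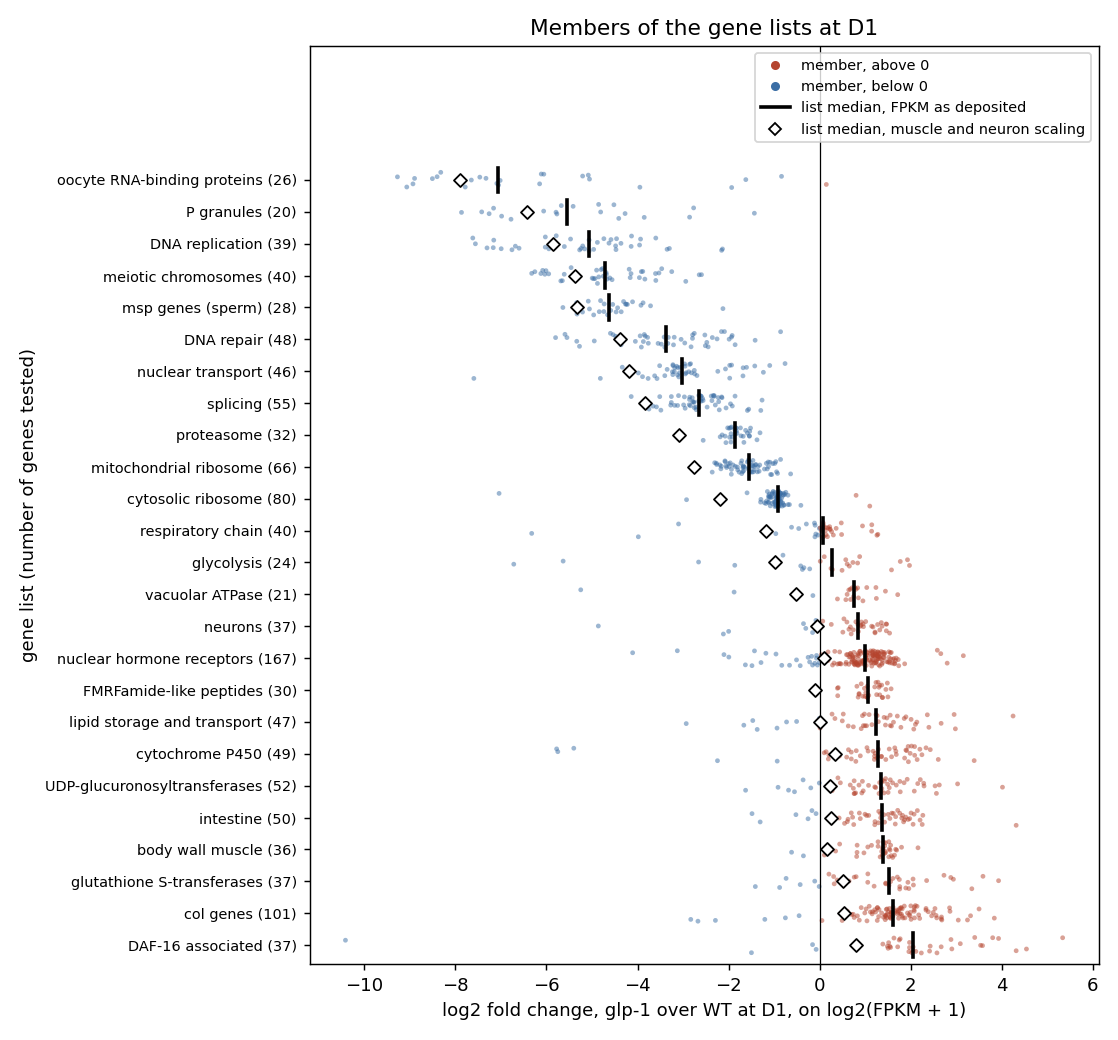
Each row is a gene list, each point a tested member by its log2 fold change (glp-1 over WT at D1), the black bar the list median with FPKM as deposited and the diamond the median in the muscle and neuron scaling. Germline and cell division lists lie far to the left, and the machinery of RNA and protein synthesis lies between the medians -3.02 and -0.92. Most somatic and stress lists lie to the right, where the diamonds lie nearer to 0 than the bars. Among lists of at least 10 tested genes the diamond of the DAF-16 list is the farthest right at 0.79. It is followed by col genes at 0.54 and glutathione S-transferases at 0.51.

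Fat and sugar stores are built and drawn on in the intestine. Lipid storage, lipase and transport genes had 37 of 47 higher and 7 lower (median 1.24; 18 higher and 17 lower when scaled, median -0.0022). The fat-binding gene far-3 had 521, 635 and 573 FPKM in glp-1 worms, against 32, 29.4 and 26.8 FPKM in WT worms, and the lysosomal lipase lipl-2 had 68.5, 48.8 and 64.8 FPKM in glp-1 worms, against 6.97, 5.16 and 8.45 FPKM in WT worms. The lipid droplet protein dhs-3 had 368, 359 and 341 FPKM in glp-1 worms, against 48.8, 56.3 and 61.2 FPKM in WT worms. The triglyceride enzyme dgat-2 had 67.1, 77.2 and 70.7 FPKM in glp-1 worms, against 14, 11 and 13.5 FPKM in WT worms. These 4 calls stayed higher in the muscle and neuron scaling, at 3.0, 1.79, 1.41 and 1.18. The fatty acid carrier lbp-9 fell, to 137, 130.5 and 144 FPKM in glp-1 worms, against 1069, 1061 and 1023 FPKM in WT worms. The lipase lipl-4, known from long-lived mutants without a germline, was low in level and higher, with 2.02, 1.53 and 2.02 FPKM in glp-1 worms, against 0.526, 0 and 0.0406 FPKM in WT worms (1.29, SE 0.19, and 0.82 when scaled, still higher).

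Fatty acid synthesis had 25 of 37 genes higher and 6 lower (median 0.89; 7 higher and 18 lower when scaled, median -0.17), with the palmitoyl desaturase fat-5 at 702, 764 and 706 FPKM in glp-1 worms, against 61.7, 56.9 and 60.8 FPKM in WT worms. The ATP citrate lyase acly-2 was the largest fall, with 21.9, 24 and 22.3 FPKM in glp-1 worms, against 134, 132 and 133 FPKM in WT worms. Beta-oxidation genes had 32 of 50 higher and 14 lower (median 0.65; 8 higher and 26 lower when scaled, median -0.60). Peroxisomal acyl-CoA oxidase acox-2 had 170.1, 169 and 147 FPKM in glp-1 worms, against 6.38, 9.65 and 7.12 FPKM in WT worms, and the carnitine transferase genes cpt-3 and cpt-5 had 2.90 (SE 0.14) and 2.94 (SE 0.19).

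Several genes that turn fat into sugar were higher, also when scaled. The gluconeogenic enzyme pck-1 had 906, 839 and 971 FPKM in glp-1 worms, against 104.1, 125 and 96.4 FPKM in WT worms. The glyoxylate enzyme icl-1 had 715, 732 and 708 FPKM in glp-1 worms, against 185, 126 and 101 FPKM in WT worms, with the WT libraries spread more widely than the mutant ones. Trehalose synthases tps-1 and tps-2 had 1.94 (SE 0.09) and 2.45 (SE 0.07). In the same list glycogenin gyg-2, which starts glycogen chains, fell to 1.71, 2.75 and 1.35 FPKM in glp-1 worms, against 492, 480.1 and 473 FPKM in WT worms. Of 41 genes of this list 26 were higher and 9 lower (median 0.45; 8 higher and 26 lower when scaled, median -0.80). One-carbon genes had 16 higher and 14 lower of 34 (median 0.18; 2 higher and 28 lower when scaled, median -1.06). The cystathionine enzyme cth-2 had 2.32 (SE 0.11), and the S-adenosylmethionine synthetase sams-3 had -2.40 (SE 0.08).

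DAF-16 is known to become nuclear in the intestine of worms without a germline, and its activity was not tested here. The gene lists were chosen with earlier results of these data known, so the rank of a list by median only describes it. A smaller list, the dod genes (9 tested, named as downstream of DAF-16), had a median of 2.11, or 1.03 when scaled. Genes linked to DAF-16 had the highest median among lists of at least 10 tested genes, 2.05, with 33 of 37 higher and 2 lower, and 25 higher and 4 lower (median 0.79) in the muscle and neuron scaling. The metallothionein mtl-1 had 402, 365 and 422 FPKM in glp-1 worms, against 15.8, 4.21 and 9.84 FPKM in WT worms, and the superoxide dismutase sod-3 had 58.1, 59.8 and 63.3 FPKM in glp-1 worms, against 5.77, 4.91 and 3.86 FPKM in WT worms. Ferritin ftn-1 had 51.5, 79.5 and 54.9 FPKM in glp-1 worms, against 2.92, 3.83 and 0.586 FPKM in WT worms. The transferase gst-10 had 487, 514 and 550.0 FPKM in glp-1 worms, against 23.9, 44.5 and 33.7 FPKM in WT worms. The small heat shock gene sip-1, made in oocytes and embryos, was the largest fall in the whole comparison, with 2.12, 0.617 and 0.624 FPKM in glp-1 worms, against 3079, 2513 and 2688 FPKM in WT worms. The desiccation protein gene lea-1 (-0.16, SE 0.18, adjusted p = 0.428) and the alcohol dehydrogenase sodh-1 (-0.078, SE 0.30, adjusted p = 0.807) were not called.

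The regulators moved in both directions. For daf-16 itself the values were 130.4, 124 and 127 FPKM in glp-1 worms, against 109, 98.6 and 92.4 FPKM in WT worms (0.35, SE 0.07), lower when scaled (-0.91). Its partner tcer-1 had 24.6, 22.7 and 22.7 FPKM in glp-1 worms, against 91.7, 89.1 and 89.9 FPKM in WT worms. The steroid receptor daf-12 had 17.6, 25.3 and 16.2 FPKM in glp-1 worms, against 5.04, 6.74 and 4.67 FPKM in WT worms, and the nuclear receptor nhr-80 had 20.2, 21 and 18.3 FPKM in glp-1 worms, against 8.29, 7.26 and 6.96 FPKM in WT worms. The fat regulator nhr-49 was not called (0.19, SE 0.11, adjusted p = 0.119), and the autophagy factor hlh-30 had 1.01 (SE 0.11). The heat shock factor hsf-1 had 8.46, 9.02 and 9.68 FPKM in glp-1 worms, against 50.7, 48.6 and 54.3 FPKM in WT worms. Of 28 regulators of this longevity 14 were higher and 12 lower (median 0.28; 3 higher and 17 lower when scaled, median -0.96).

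Within the insulin receptor pathway 15 of 20 genes were lower and 5 higher (median -1.17; 2 higher and 16 lower when scaled, median -2.37). The kinase age-1 had 3.58, 2.95 and 3.74 FPKM in glp-1 worms, against 32, 29.8 and 34.3 FPKM in WT worms. The receptor daf-2 had -1.33 (SE 0.11) and akt-1 -1.41 (SE 0.09), while akt-2 on the X chromosome had 25, 24.8 and 22.5 FPKM in glp-1 worms, against 6.23, 6.16 and 5.16 FPKM in WT worms. The chromatin regulator hcf-1 had -4.03 (SE 0.08) and the methyltransferase prmt-1 -4.23 (SE 0.06). Of 22 insulin-like peptide genes tested 16 were higher and 4 lower (median 1.01; 2 higher and 6 lower when scaled, median 0.12), with ins-19 at 11.5, 8.6 and 12.4 FPKM in glp-1 worms, against 0.329, 0 and 0 FPKM in WT worms. In the other direction ins-34 had 0, 0 and 0.224 FPKM in glp-1 worms, against 8.55, 10.1 and 13 FPKM in WT worms.

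Wnt and TGF-beta genes were mixed, 18 higher, 16 lower and 7 not called of 41 (median 0.14; 4 higher and 27 lower when scaled, median -0.99). The Wnt ligand of the early embryo, mom-2, had 1.54, 0.720 and 0.984 FPKM in glp-1 worms, against 120.5, 124 and 125 FPKM in WT worms, and the beta-catenin sys-1 had -3.85 (SE 0.12). On the side of body size control, the SMAD gene sma-4 had 1.66 (SE 0.12) and the receptor sma-6 1.30 (SE 0.12), of which sma-4 stayed higher when scaled (0.47).

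Detoxification families were mostly higher. Cytochrome P450 genes had 39 of 49 higher and 5 lower (median 1.29; 24 higher and 10 lower when scaled, median 0.34). UDP-glucuronosyltransferases had 44 of 52 higher and 4 lower (median 1.35; 18 higher and 8 lower when scaled, median 0.23). Glutathione S-transferases had 28 of 37 higher and 3 lower (median 1.52; 17 higher and 8 lower when scaled, median 0.51). The P450 gene cyp-35B1 had 15, 14 and 13.5 FPKM in glp-1 worms, against 0.125, 0.414 and 0.869 FPKM in WT worms, and ugt-41 had 146, 158 and 130.1 FPKM in glp-1 worms, against 6.47, 8.96 and 8.77 FPKM in WT worms. The lower P450 genes were led by cyp-31A2, which makes lipids of the eggshell, with 0.257, 0.214 and 0.0691 FPKM in glp-1 worms, against 60.9, 60.2 and 70.1 FPKM in WT worms, and its near-identical copy cyp-31A3 (-5.40, SE 0.10). Among short-chain dehydrogenases dhs-26 (chromosome X, 3360722 to 3362493) had the largest rise of all genes, with 387, 385 and 352 FPKM in glp-1 worms, against 0.332, 0.802 and 0.151 FPKM in WT worms; it was also the single gene at 100 FPKM or more in glp-1 and below 1 FPKM in WT.

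Defence genes, most of them for secreted proteins, had more higher than lower members with FPKM as deposited. Saposin-like, thaumatin-like and antimicrobial peptide genes had 24 of 29 higher and 1 lower (median 1.20; 11 higher and 6 lower when scaled, median 0.085), with thn-2 at 414, 455 and 393 FPKM in glp-1 worms, against 68, 61.7 and 41.9 FPKM in WT worms. The antimicrobial peptide gene abf-2 had 58.1, 44.1 and 44.9 FPKM in glp-1 worms, against 3.62, 1.85 and 3.42 FPKM in WT worms. Of 13 lysozyme genes 6 were higher and 2 lower (median 0.18; 3 higher and 5 lower when scaled, median -0.53), with lys-2 at 842, 913 and 814 FPKM in glp-1 worms, against 68.1, 52.7 and 155 FPKM in WT worms. Among these, thn-2, abf-2 and lys-2 stayed higher when scaled. C-type lectins, 27 of which passed through WT alone and 12 through glp-1 alone, had 67 of 113 higher and 36 lower (median 0.89; 36 higher and 45 lower when scaled, median 0.045). They held both a gut lectin, clec-85, with 683, 776 and 843 FPKM in glp-1 worms, against 113, 85.3 and 144 FPKM in WT worms, and a germline lectin, clec-87, with 0.983, 1.26 and 0.765 FPKM in glp-1 worms, against 1614, 1612 and 1607 FPKM in WT worms. Of 13 tested small heat shock genes 12 were higher, all but sip-1 (6 higher and 3 lower when scaled, median 0.47), and superoxide, peroxide and metal defence had 22 higher and 13 lower of 36 (median 0.58; 8 higher and 21 lower when scaled, median -0.59).

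Neuropeptide and receptor families were mostly higher with FPKM as deposited. The muscle and neuron scaling is itself set in part by neuronal genes, so it is no separate measure for neuropeptide genes. FMRFamide-like peptides had 29 of 30 genes higher (median 1.06) and neuropeptide-like proteins 34 of 41 (median 0.99). Nuclear hormone receptors had 135 of 167 higher and 14 lower (median 1.0). When scaled, the FMRFamide-like list had 2 higher and 2 lower (median -0.10). The neuropeptide-like list then had 3 higher and 9 lower (median -0.089), and the receptors had 31 higher and 42 lower (median 0.10). The largest rises of the receptors were those of nhr-76, with 60.6, 62.8 and 62.4 FPKM in glp-1 worms, against 5.42, 7.89 and 5.18 FPKM in WT worms, and of nhr-74, with 13, 13.5 and 16.1 FPKM in glp-1 worms, against 1.15, 1.04 and 1.32 FPKM in WT worms. Homeobox genes of the ceh set were mostly lower, 25 of 40, with 9 higher (median -1.28; 1 higher and 32 lower when scaled, median -2.09). Through WT alone passed 12 of these 40 genes.

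Ubiquitin ligase families held members of both directions. Of 19 Skp1-related genes 13 were lower and 5 higher (1 higher and 14 lower when scaled, median -3.59), with skr-2 at 0.106, 0.889 and 0.530 FPKM in glp-1 worms, against 185, 193 and 196 FPKM in WT worms, and skr-4 at a log2 fold change of 1.71 (SE 0.08). Of 164 F-box A, B and C genes (335 listed) 88 were lower, 83 genes having passed through WT alone, and 62 were higher (22 higher and 96 lower when scaled, median -1.61). Of 49 MATH and BATH genes 29 were lower, 21 genes having passed through WT alone, and 19 were higher (14 higher and 30 lower when scaled, median -2.39). Members at both ends were several units from 0: fbxa-215 had -7.57 (SE 0.10) and fbxc-1 2.46 (SE 0.47) (not called when scaled), and bath-30 had -5.41 (SE 0.12) and bath-26 3.13 (SE 0.21). The vacuolar ATPase showed the same within a complex, with 18 of 21 subunit genes higher (1 higher and 16 lower when scaled, median -0.51) and vha-18 at 0.396, 0.206 and 0.478 FPKM in glp-1 worms, against 48.9, 48.9 and 53.7 FPKM in WT worms.

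Secreted and membrane families of the soma were mostly higher. Transthyretin-related genes, secreted proteins of nematodes, had 44 of 48 higher and 2 lower (median 1.36; 22 higher and 9 lower when scaled, median 0.30). The outlying member was ttr-50, with 0.206, 0 and 0.240 FPKM in glp-1 worms, against 139.7, 151 and 138 FPKM in WT worms. Patched-related genes had 16 of 20 higher and 4 lower (10 higher and 5 lower when scaled, median 0.36), with ptr-2 at -5.96 (SE 0.09) and ptc-1, which works in germline cytokinesis, at -2.73 (SE 0.07). Hedgehog-related genes had 14 of 20 higher (10 higher and 7 lower when scaled, median 0.092), TWK potassium channels 23 of 25 (5 higher and 5 lower when scaled, median 0.14) and ABC transporters 21 of 29 (9 higher and 8 lower when scaled, median 0.21). Autophagy and lysosome genes had 17 higher and 22 lower of 45 (4 higher and 34 lower when scaled, median -1.37). Examples of both directions follow. The genes of autophagosome formation atg-7, atg-3 and atg-18 were lower (-1.36, SE 0.07, -1.38, SE 0.07 and -1.34, SE 0.07), while the lysosomal protease genes asp-3 and asp-4 were higher (1.62, SE 0.15 and 1.86, SE 0.06). When scaled, asp-4 stayed higher (0.60) and asp-3 was not called (0.35).

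The largest rises among genes averaging 1 FPKM or more in both groups were those of T22B7.7, C32H11.4, mtl-1, D1086.3, catp-3 and C30G12.2, of which 4 carry only a sequence name. T22B7.7 (chromosome X, 5651865 to 5654074) had 1670.2, 1765 and 1631 FPKM in glp-1 worms, against 11.3, 15.6 and 12.2 FPKM in WT worms, a log2 fold change of 6.92 (SE 0.11). C32H11.4 had 168, 195 and 211 FPKM in glp-1 worms, against 3.23, 2.19 and 6.4 FPKM in WT worms. D1086.3 had 409, 556 and 449.9 FPKM in glp-1 worms, against 10.6, 22.6 and 24.1 FPKM in WT worms, and C30G12.2 had 718, 715 and 634 FPKM in glp-1 worms, against 35.1, 25.8 and 26.7 FPKM in WT worms. The cation pump catp-3 had 90.6, 89.5 and 89.4 FPKM in glp-1 worms, against 2.66, 2.75 and 3.35 FPKM in WT worms. All 6 stayed higher when scaled, catp-3 by 3.42 and T22B7.7 by 5.69. Of genes below 0.1 FPKM on average in WT, F56D6.9 and the secreted-protein gene scl-20 were the most abundant in the mutant, both listed at 0 in all 3 WT libraries. F56D6.9 had 18.3, 28.4 and 37.7 FPKM in glp-1 worms, and scl-20 had 19.5, 22.4 and 25.4 FPKM. Of genes below 0.1 FPKM on average in the mutant, gln-6 and hil-5 were the most abundant in WT, followed by trcs-1 and puf-11. The arylacetamide deacetylase homolog trcs-1 had 0.0836, 0.0819 and 0.0799 FPKM in glp-1 worms, against 365, 341 and 404 FPKM in WT worms, and the PUF gene puf-11 had 0.122, 0 and 0.0653 FPKM in glp-1 worms, against 364, 351 and 359.5 FPKM in WT worms. Of all tested genes 6132 have only a name of this kind or another irregular form, and 2677 of them were higher, 2951 lower and 504 not called.

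The chromosomes differed in the direction of change. The X chromosome is known to be largely silent in germ cells, so germline genes are rare on it. Of 1774 tested X-linked genes 69% were higher in glp-1 and 20.5% lower (median 0.84), against 25.7% higher and 66.6% lower of 2062 genes on chromosome I (median -1.27). Chromosome V lay between them, with 55% higher and 37% lower, and chromosomes II, III and IV had 29.1% to 39.4% higher. Genes lower by 4 or more on the log2 scale were 2.09% of X-linked genes and 8.97% of those on chromosome I. X-linked genes supplied 18.4% to 18.9% of all FPKM in glp-1 libraries, against 7.62% to 8.05% in WT libraries. In the muscle and neuron scaling the X median was -0.18 and the chromosome I median -2.29, so the order of the 2 stayed while the sign on X turned. Not every X-linked gene rose: the P granule gene meg-1 had 0.0277, 0.0226 and 0 FPKM in glp-1 worms, against 128, 122.1 and 134 FPKM in WT worms, and the germ cell and embryo innexins inx-3 and inx-2 had -5.48 (SE 0.16) and -5.11 (SE 0.16).

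**Figure D5:**
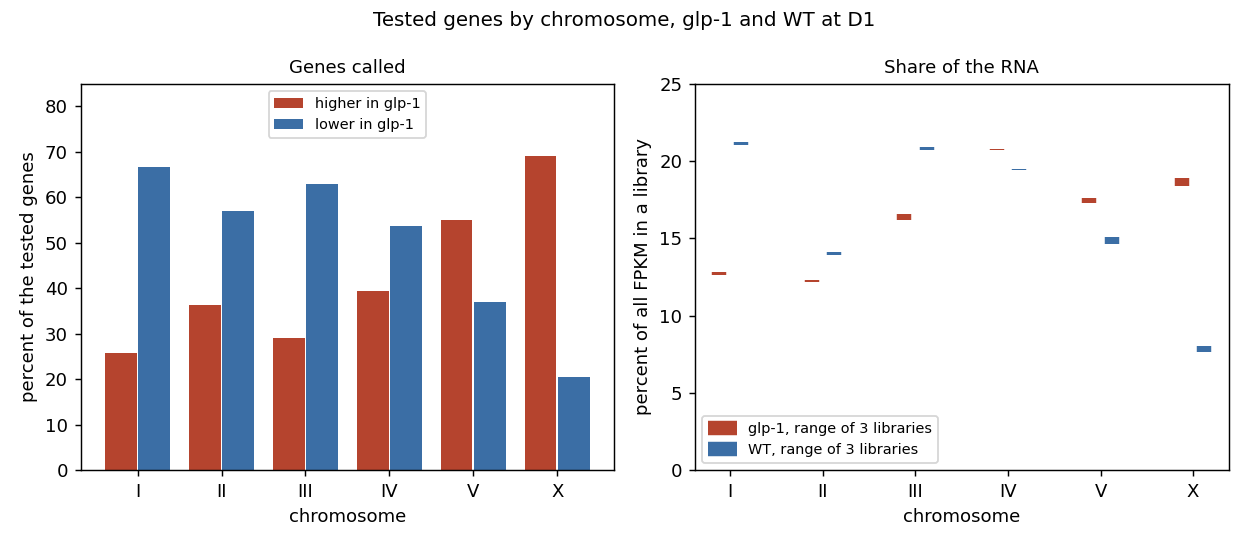
The left panel gives the percent of tested genes on each chromosome that were higher (red) or lower (blue) in glp-1 at D1, and the right panel the percent of all FPKM from each chromosome, as the range over 3 libraries of glp-1 (red, left) and of WT (blue, right). X has the most genes higher (69%) and the largest gain in share, and chromosome I the most genes lower (66.6%).

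A last comparison asks where the effect of germline loss at D1 is not that at D6. Each contrast has its own control libraries. The D6 worms had been moved to a cooler temperature, so age and temperature cannot be told apart. The difference between the effects, tested as an interaction over all 12 libraries, was called in 48.1% of the genes (6121). That share holds calls in either direction, so it is not the background for a count by direction. The counts below are given by direction, without such a background, and only describe the lists. Of 28 tested msp genes 28 had an effect at D6 above that at D1, with a median of -0.50 at D6 and -4.62 at D1. Of these, 24 had passed the filter through the WT libraries of D1 alone. A deep fall at D1 was thus favoured by the choice of genes, and the count only describes the list. The WT level of these genes differed between the ages, for example 50.9 FPKM of msp-31 on average in WT at D1 and 2.27 FPKM at D6.

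Other groups also set the ages apart. Collagens had a median log2 fold change of 1.61 at D1 and -0.48 at D6, and in 57 of 101 genes the effect was called below at D6 and in 9 above. Respiratory chain genes had 0.081 at D1 and -1.05 at D6 (37 of 40 below), mitochondrial ribosomal proteins -1.56 and -2.44 (62 of 66 below) and cytosolic ribosomal proteins -0.92 and -1.40 (69 of 80 below). Folding factors of the endoplasmic reticulum went the other way, -0.59 at D1 and 0.21 at D6 (16 of 22 above), and hsp-4 had -2.85 (SE 0.06) at D1 and 0.35 at D6. This direction was not particular to them. Body wall muscle had 1.40 at D1 and 1.98 at D6 (22 of 36 above, 1 below). Intestine had 1.37 and 2.06 (24 of 50 above, 3 below). Differences between the ages were not tested in the muscle and neuron scaling. Of 40 meiotic genes 1 was above and 6 were below at D6 (medians -4.72 at D1 and -5.01 at D6), and of 41 cell cycle genes 6 were above and 5 below.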

How the data were processed

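Whole-worm RNA of the nematode Caenorhabditis elegans was sequenced in 12 libraries, of which the 6 of day 1 entered the main comparison. The values used are FPKM as deposited by the authors, per the file headers. HISAT2 2.0.4, DESeq2 1.6.3 and the build WBcel235 are named in the submitters' processing notes; the sources used here give neither the program that computed FPKM nor its strand setting. No read counts were used, and depth was estimated from the smallest steps of FPKM between low genes. Genes were matched by name, 18142 of 20257 by symbol and 1202 through other names; 913 had no match and 11 look like dates made by a spreadsheet. Coordinates are those of the annotation of WBcel235, counted from 1.

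A gene was tested where it reached 1 FPKM in 3 of the 6 libraries. The test was limma 3.58.1 (R 4.3.3) with trend and robust settings on log2(FPKM + 1), two-sided, Benjamini-Hochberg adjusted over all genes tested, called at 0.05. It was run on simulated data in which few genes changed and FPKM shares did not shift, so that run cannot vouch for the calls here. The difference between the genotype effects at D6 and D1 came from 1 fit of all 12 libraries, on the genes that passed the filter at D1. Pseudocount, filter, scaling, moderation, a replicate block and leaving out each library were tried as alternatives. Genes named are glp-1, the largest changes overall and in each list, those of highest level, gene copies of 1 protein, the largest differences between the ages, and textbook markers from the lists; lin-12 was added after its values were seen. The members, the 89 gene lists and the tests were chosen with earlier results of these data known. In the symbol lists 1581 of 1635 entries were found.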

Additional observations from a re-analysis of the deposited data

Results flagged for a closer look

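The effect of germline loss on 12 genes differed most between the ages, by the interaction term of limma over all 12 libraries, among genes averaging at least 10 FPKM in 1 group. Only genes chosen by their D1 level were tested. Values are the log2 fold change (glp-1 over WT) at D6 minus that at D1.

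The difference was positive for 5 sperm protein genes, msp-78 (5.26, SE 0.51), msp-31 (4.97, SE 0.48), msp-152 (4.89, SE 0.56), msp-81 (4.75, SE 0.56) and msp-50 (4.71, SE 0.42), whose WT level was high at D1 and low at D6. These copies are near identical. It was positive for R09E12.9 as well (4.81, SE 0.25). At D6 this gene had 79.6, 75.1 and 83.3 FPKM in glp-1 worms, against 2.70, 5.30 and 3.22 FPKM in WT worms, and at D1 its log2 fold change was -0.69 (SE 0.15).

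The difference was negative for dhs-26 (-5.53, SE 0.17), which had 386, 399 and 389 FPKM in glp-1 worms, against 69.3, 63.8 and 66.9 FPKM in WT worms at D6 and less than 1 FPKM in each WT library at D1. The mutant level was thus close at both ages, and the WT level was the one that differed. For C32H11.4 the difference was -4.43, SE 0.40 and for K10C2.8 -4.40, SE 0.23. The collagens col-139 (-4.38, SE 0.32), col-12 (-4.29, SE 0.86) and col-39 (-4.05, SE 0.49) were higher in glp-1 at D1. At D6 col-139 had 5.12, 3.84 and 4.43 FPKM in glp-1 worms, against 6.91, 5.29 and 9.01 FPKM in WT worms. All 12 differences passed the adjusted threshold, with p-values up to 0.00246, and each set of ages also differs by culture temperature, which cannot be told apart from age.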

How the results depend on the processing

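Scaling to the muscle and neuron lists moved the count of higher genes most among these settings: 1769 were then higher, against 5349 with FPKM as deposited. Of 279 genes named in the text, 228 kept their direction and their side of the threshold under it. With the sign kept, 14 lost the call and 10 gained one. The other 27 changed sign, and some of these also lost a call (such as iff-2) or gained one (such as cco-1). The scaled log2 fold changes of these 27 were cco-1 (-1.11), cco-2 (-1.10), ced-1 (-1.14), cey-1 (-1.22), cyc-2.1 (-1.13), daf-16 (-0.91), eef-1A.2 (-0.15), elt-2 (-0.12), ftt-2 (-0.62), hda-4 (-1.17), hlh-30 (-0.24), ife-2 (-0.74), iff-2 (-0.027), inx-8 (-0.74), inx-9 (-0.49), ncl-1 (-1.09), nhr-49 (-1.05), perm-2 (-0.56), perm-4 (-0.38), puf-9 (-1.08), rpl-11.2 (-0.46), ssp-37 (-0.35), tra-1 (-0.90), tra-3 (-1.18), ucr-2.1 (-0.11), vit-2 (-0.33) and vit-6 (-0.27). By its construction this scaling lowers the log2 fold change of every tested gene, rising or falling, and it changed the sign of 29 of 89 list medians, with shifts of up to 1.26. A pseudocount of 0.1 gave 11639 called genes and kept all list medians on their side of 0, with shifts of up to 2.88. The filter at 5 FPKM changed the sign of 2 of 88 list medians, with shifts of up to 2.28, and leaving out single libraries that of 2 of 534, with shifts of up to 0.237. The other filters, the fit of all 12 libraries, the median-ratio scaling and the fit without trend and robust settings gave 9191 to 13432 calls (13432 of 18287 genes with no filter, 9191 of 9698 at 5 FPKM) and turned no named gene round; ncl-1 was called at a pseudocount of 0.1 and at 5 FPKM, cyk-1 in the fit of all libraries and jmjd-3.1 without trend and robust settings. Leaving out each library gave 11509 to 11618 called genes, 5199 to 5295 higher, 6307 to 6344 lower, 8623 to 8784 at least 2-fold apart, and 5678 to 5947 genes with a difference between the ages; no named gene lost its call, and cco-1, cco-2, cyk-1, ncl-1, nhr-49 and spe-4 were each called when some single library was left out. With the replicate number as a block 11693 genes were called (5982 for the ages). The numbers were not taken as pairs, since deviations of same-numbered D1 libraries correlated at 0.0366, -0.0199 and -0.119. Genes below about 1 FPKM rest on few fragments at this depth, so fold changes against such levels are loose.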

Other observations

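Families not described above were mixed. Of 10 tested klp genes 2 were higher and 7 lower (1 and 8 when scaled to muscle and neurons), with klp-18 of the meiotic spindle at -6.26 (SE 0.09) and the axonal motor gene klp-4 at 1.64 (SE 0.09), both on the log2 scale of glp-1 over WT at D1. Of 18 tested ubiquitin-conjugating enzyme genes 4 were higher and 12 lower (0 and 14 when scaled to muscle and neurons), with the SUMO-conjugating enzyme gene ubc-9 at -3.40 (SE 0.06). Of 17 tested chemoreceptor genes 11 were higher and 3 lower (6 and 5 when scaled to muscle and neurons). Of 14 tested astacin protease genes 12 were higher and 2 lower (5 and 2 when scaled to muscle and neurons). Of 18 tested ligand-gated channel genes 17 were higher and 0 lower (1 and 1 when scaled to muscle and neurons). Of 10 tested zip genes of bZIP factors 6 were higher and 4 lower (1 and 5 when scaled to muscle and neurons).

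Among all tested genes 516 were listed at 0 in all 3 glp-1 libraries, and 8 were listed at 0 in all 3 WT libraries. At 100 FPKM or more on average in WT and below 1 FPKM in glp-1 were 117 genes, and the other way round 1.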
